A study of Homo sapiens with 8 samples.

Results

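The tubulin isotypes described here are the 10 genes of a fixed list that had a row among the 14526 genes of the deposited expression table. They comprise 3 alpha genes (TUBA1A, TUBA1B and TUBA1C), 6 beta genes (TUBB, TUBB2A, TUBB2B, TUBB3, TUBB4B and TUBB6) and the gamma gene TUBG1, and all 10 listed genes had a row. RNA from 4 control replicates, grown without addition, was compared with RNA from 4 replicates kept in 10 mM sodium benzoate (SB) for 24 h. SB is a food preservative that the study used as a source of benzoyl groups on histone lysines, and the comparison asks how transcription differed after the exposure. All 8 libraries were labelled HepG2, a line from a human liver tumour, grown in DMEM with serum. The replicates of each group are biological replicates of this line. Values are RPKM, reads scaled to the counted gene length and to the library size.

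Alpha- and beta-tubulin pair into the dimers from which microtubules are built, and gamma-tubulin sits in the ring complex from which microtubules grow. Human cells carry several genes for each kind, called isotypes, whose proteins differ mostly near their tails and whose use differs between tissues. The mRNAs of alpha- and beta-tubulin are also controlled by the amount of free dimer. When dimers are plentiful, the factor TTC5 recognises the start of such a chain as it leaves the ribosome, and the mRNA is degraded. For that reason the start of each coding sequence is given here, as the first 30 bases of the GENCODE v44 coding sequence on the hg38 build, 5′ to 3′ on the coding strand, with the first 4 codons in capitals.
TUBA1A: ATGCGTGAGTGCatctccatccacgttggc
TUBA1B: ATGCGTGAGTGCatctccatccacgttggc
TUBA1C: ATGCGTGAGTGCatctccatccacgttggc
TUBB: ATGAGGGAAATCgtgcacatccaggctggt
TUBB4B: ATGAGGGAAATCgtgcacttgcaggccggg
TUBB3: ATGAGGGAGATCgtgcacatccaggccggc
TUBB6: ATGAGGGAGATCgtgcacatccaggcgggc
TUBB2A: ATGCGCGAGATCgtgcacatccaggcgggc
TUBB2B: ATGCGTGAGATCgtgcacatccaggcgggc
TUBG1: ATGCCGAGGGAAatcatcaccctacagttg
The 3 alpha genes shared all 30 bases, TUBB shared its first 4 codons with TUBB4B, and TUBB3 shared them with TUBB6. These are matches of bases, and the encoded chains were not compared, so they do not group the genes for this control.

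The alpha genes lie close together on chromosome 12, TUBA1A at chr12:49184686-49189080 and TUBA1B at chr12:49127782-49131397 on the minus strand, and TUBA1C at chr12:49188736-49274600 on the plus strand. TUBB (chr6:30717435-30725538, plus strand) lies apart from TUBB2A (chr6:3153497-3157544) and TUBB2B (chr6:3223324-3231730), both on the minus strand of the same chromosome. TUBB3 is at chr16:89921392-89938761, TUBB4B at chr9:137241287-137243707, TUBB6 at chr18:12307669-12344320 and TUBG1 at chr17:42609641-42615238, each on the plus strand. Each alpha and beta transcript used here has 4 exons, and that of TUBG1 has 11.

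Near-identical sequence limits how well these genes can be told apart by reads of 50 bases. The coding sequences of TUBA1A and TUBA1B were 97.2% identical, those of TUBA1B and TUBA1C 96.8%, and those of TUBB2A and TUBB2B 98.2%, whereas TUBB was between 80.9% and 84.7% identical to the other beta genes. Of all 50-base windows of the transcript, 62.7% occurred elsewhere in the genome for TUBA1B, 52.7% for TUBA1A and 27.4% for TUBA1C. The share was 64.6% for TUBB2A, of which 59.5% of all windows matched TUBB2B, and 54.9% for TUBB2B. It was 30% for TUBG1, 23.4% for TUBB, 11.2% for TUBB4B, 9.23% for TUBB3 and 1.09% for TUBB6. How the authors counted reads with several hits, and whether strand was used, was not given in the sources used here, so the split of reads within the alpha genes and between TUBB2A and TUBB2B is uncertain. The same holds for genes that overlap another annotated gene, since 68.7% of the TUBA1B windows lie within the antisense gene TUBA1B-AS1 and 92.8% of the TUBB3 windows lie within an overlapping gene on its locus.

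Recovered reads per library were 36990091 to 44492817 in the control group and 37161801 to 44878446 in the SB-treated group, and every isotype had at least 191 reads in every library. Control replicate 1 stood apart from the other controls. Each isotype is therefore given with and without it, and among the other genes tested by name only SIRT2 changed its call when it was left out. The labelled cell type was checked against 15 hepatocyte markers: 13 had no row, ALB, AFP and APOB among them, and TF was at 0.167 to 0.210 RPKM in the controls and 0.316 to 0.485 in SB. Of 7 neuronal markers 5 had a row (INA, NEFL, NEFM, SYT1 and RBFOX3, without SNAP25 and ELAVL4), summing to 87.2 to 98.5 RPKM in the controls and 58.6 to 60.6 in SB. The hepatocyte label was therefore not borne out by the marker genes, and the libraries are called by their groups only. Neither immune marker had a row, and of 3 fibroblast markers COL1A1 alone did, at 3.48 to 5.38 RPKM in the controls and 4.06 to 4.13 in SB.

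After SB, 5 of the 10 isotypes rose, all of them beta genes, and 3 fell, namely TUBA1A, TUBA1B and TUBG1 (limma on log2(RPKM + 1), adjusted p below 0.05 over all genes). The largest rise was that of TUBB4B, at 1.81-fold, and the largest fall that of TUBA1B, at 0.832 of the control mean. TUBA1C and TUBB2A did not pass the test. Over all genes, 65.6% passed it, 33.0% higher and 32.6% lower, and the 8 of 10 isotypes called are to be read against that share. The values of the 2 groups did not overlap for 8 isotypes, 6 higher and 2 lower, where 61.5% of all genes showed no overlap, 31.0% higher and 30.5% lower. The median absolute log2 fold change was 0.23 for the isotypes and 0.20 for all genes, and the median signed change was 0.18 and 0.00. Without control replicate 1, 75.5% of all genes passed, and of the isotypes 6 were higher and 3 lower, with TUBA1C added. In bulk RNA, fewer cells of a type and less RNA per cell cannot be told apart.

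**Figure D1:**
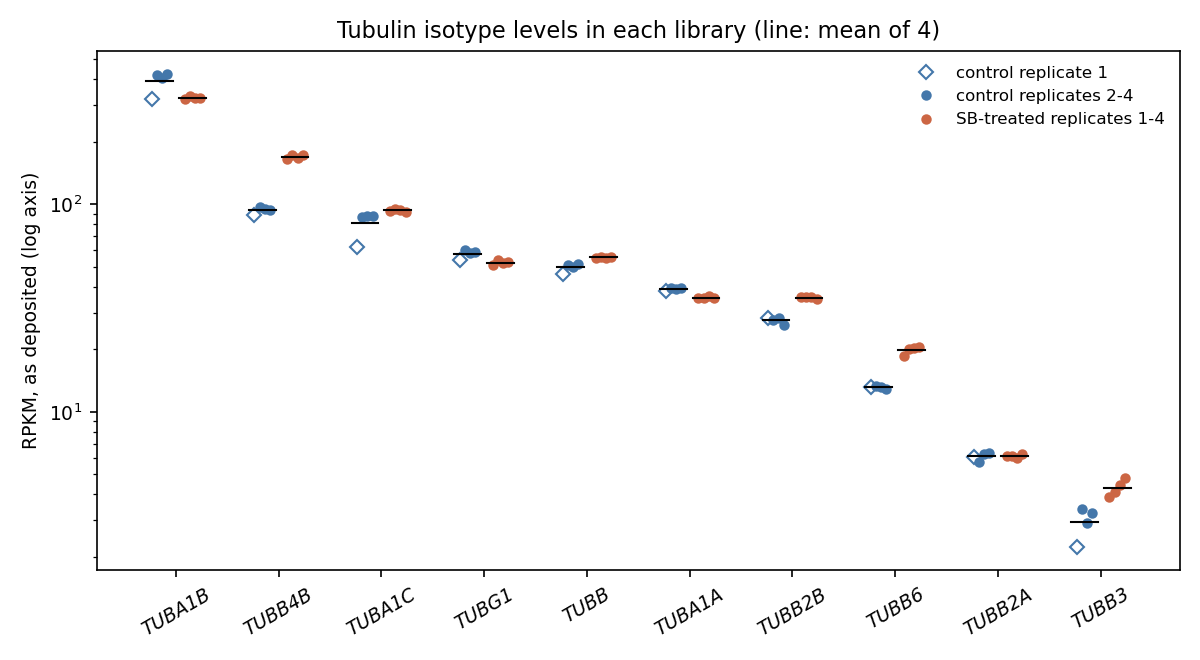
RPKM of each isotype as deposited (log axis) in each of 8 libraries, with the mean of 4 as a line and control replicate 1 as an open diamond. TUBB4B lies between 89.0 and 97.4 in the controls and between 165 and 174 after SB, and control replicate 1 lies far below the other controls for TUBA1B and TUBA1C.

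TUBA1B, an alpha gene expressed in most tissues, gave the highest alpha level. Its RPKM was 320.2, 419.9, 407 and 423 in control replicates 1 to 4 and 323, 332, 326 and 325 in SB-treated replicates 1 to 4. The control group split into 1 low library and 3 high ones, and the low library was below all SB-treated libraries, so the groups overlapped. The mean fell from 393 ± 48.7 to 326 ± 3.94 RPKM (SD, n = 4 each), a log2 fold change of -0.26 (SE 0.0811, limma adjusted p = 0.0189). Without control replicate 1 the change was -0.35 (limma adjusted p = 2.05e-06), and without control replicate 2, 3 or 4 it was -0.22, -0.24 or -0.22 and no longer passed (limma adjusted p = 0.0528, 0.0521 and 0.0537).

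TUBA1C, a second broadly used alpha gene, was higher in every SB-treated library than in any control. Its RPKM was 62.4, 87.1, 88.0 and 88.0 in the controls and 93.3, 95.0, 93.4 and 91.6 after SB. The controls held 3 libraries within 1 RPKM of each other and replicate 1 far below. The means were 81.4 ± 12.6 and 93.3 ± 1.38 RPKM (SD, n = 4 each), and the log2 fold change of 0.21 (SE 0.10) did not pass (limma adjusted p = 0.0913). Without control replicate 1 the change was smaller, 0.09, and passed (limma adjusted p = 0.00804).

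TUBA1A, the alpha gene best known from developing neurons, was the least expressed of the 3. Controls were at 38.3, 39.4, 39.1 and 39.6 RPKM and SB-treated libraries at 35.2, 35.3, 36 and 35.5. The groups did not overlap, and control replicate 1 was close to the other controls. The mean fell from 39.1 ± 0.557 to 35.5 ± 0.363 RPKM (SD, n = 4 each), a log2 fold change of -0.14 (SE 0.0303, limma adjusted p = 0.00305), or -0.15 without control replicate 1 (limma adjusted p = 0.000344).

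The falls of TUBA1A, TUBA1B and TUBG1 rested on the library scaling. With values rescaled to the same sum in each library (TPM), the median gene moved by 0.19 on the log2 scale, and TUBA1A, TUBA1B and TUBG1 were at 0.047, -0.070 and 0.043, below that shift and not past the test. Rescaling multiplies all values of a library by the same factor, so it cannot change the place of an isotype relative to the median gene. That these 3 isotypes lay below the median gene under both scalings is therefore no separate support for a fall. The 5 beta genes that rose were called higher under both.

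Among the beta genes, TUBB4B showed the largest response. It encodes a beta isotype of most tissues that is also built into cilia. Its RPKM was 89.0, 97.4, 95.0 and 93.5 in the controls and 165, 173, 167 and 174 after SB. The lowest SB-treated library was far above the highest control, and no library stood apart. The mean rose from 93.8 ± 3.54 to 169.6 ± 4.13 RPKM (SD, n = 4 each), 1.81-fold, with a log2 fold change of 0.85 (SE 0.0384, limma adjusted p = 3.01e-07) and 0.82 without control replicate 1 (limma adjusted p = 5.16e-08). Of all genes in the table, 0.578% rose by more.

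TUBB6, a beta isotype of low abundance in most tissues, had controls at 13.2, 13.4, 13.2 and 12.9 RPKM and SB-treated libraries at 18.7, 20.1, 20.3 and 20.4. The controls were tightly grouped and the SB-treated libraries all lay above them. The mean rose from 13.2 ± 0.194 to 19.9 ± 0.825 RPKM (SD, n = 4 each), 1.51-fold, with a log2 fold change of 0.56 (SE 0.0376, limma adjusted p = 2.09e-06) that was 0.56 without control replicate 1 too.

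TUBB3, the isotype used as a marker of neurons, was the lowest of the 10. Controls were at 2.24, 3.41, 2.92 and 3.26 RPKM and SB-treated libraries at 3.88, 4.12, 4.42 and 4.77, on 191 to 445 reads. No SB-treated library fell into the control range, in which replicate 1 was lowest. The mean rose 1.45-fold, from 2.95 ± 0.52 to 4.30 ± 0.384 RPKM (SD, n = 4 each), a log2 fold change of 0.43 (SE 0.0935, limma adjusted p = 0.00267), or 0.34 without control replicate 1 (limma adjusted p = 0.000706). Other neuronal markers moved in both directions beside it: INA, a neuronal intermediate filament, rose from 5.29 ± 0.537 to 9.10 ± 0.375 RPKM, and the neurofilament genes NEFL and NEFM fell from 42.2 ± 1.90 to 27.1 ± 0.68 and from 38.03 ± 2.47 to 17.7 ± 0.645 (SD, n = 4 each). SYT1 and RBFOX3 did not pass, and the part of these markers in the TUBB3 result was not tested.

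TUBB2B and TUBB2A are neighbouring class II genes, abundant in brain, with nearly the same coding sequence. TUBB2B was at 28.2, 27.8, 28.3 and 26.1 RPKM in the controls and 35.7, 35.8, 35.7 and 34.8 after SB. The groups were well separated, and the mean rose 1.29-fold from 27.6 ± 1.03 to 35.5 ± 0.494 RPKM (SD, n = 4 each), a log2 fold change of 0.35 (SE 0.0364, limma adjusted p = 2.47e-05), or 0.36 without control replicate 1 (limma adjusted p = 6.76e-06). TUBB2A was at 6.09, 5.71, 6.27 and 6.30 RPKM in the controls and 6.14, 6.12, 5.96 and 6.23 after SB. Its groups overlapped fully, with means of 6.09 ± 0.272 and 6.11 ± 0.113 RPKM (SD, n = 4 each) and a log2 fold change of 0.01 (SE 0.0374, limma adjusted p = 0.906), and of 0.01 without control replicate 1 (limma adjusted p = 0.896). Only reads from windows that the genes do not share can tell them apart.

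TUBB, a beta gene expressed in most tissues, was deposited at 46.2, 51.0, 49.7 and 51.8 RPKM in the controls and 55.1, 56.0, 55.3 and 55.7 after SB. The SB-treated libraries were within 1 RPKM of each other and above all controls, of which replicate 1 was lowest. The mean rose from 49.7 ± 2.45 to 55.5 ± 0.376 RPKM (SD, n = 4 each), 1.12-fold, a log2 fold change of 0.16 (SE 0.0403, limma adjusted p = 0.0061), or 0.13 without control replicate 1 (limma adjusted p = 0.00125).

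The deposited level of TUBB cannot be set beside those of the other isotypes as it stands. The counted length recovered from its values was 24937 bases, 9.92 times its 2515-base transcript. Of its 50-base windows, 94.4% also occur on at least 1 of 7 alternate contigs of chromosome 6. With the length of 1 of these 8 copies, 3117 bases, TUBB came to 397 ± 19.6 RPKM in the controls and 444 ± 3.01 after SB (SD, n = 4 each). This level assumes that each read was counted once. Of the 8 TUBB read numbers 1 was a multiple of 8, and over 68 genes of the region with such lengths 13.2% of 544 values were, where 12.5% of whole numbers are. These numbers cannot decide the point, since a read found on only some of the copies would not add a multiple of 8. How reads with hits on several contigs were counted is not given in the sources used here, so the level of TUBB, its place among the isotypes and the beta shares carry that limit. Its reads, 44272 to 64615 per library, were the most of any isotype, and the fold change is the same on either length.

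On this 1-copy scale TUBB and TUBA1B led the controls with ranges that overlapped, followed by TUBB4B, TUBA1C, TUBG1, TUBA1A, TUBB2B, TUBB6, TUBB2A and TUBB3, each without overlap with the next. After SB the order was unchanged, except that TUBB and TUBA1B no longer overlapped and TUBA1A and TUBB2B did, at 35.5 RPKM each.

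TUBG1, the gamma-tubulin gene of the ring complex, was at 53.9, 60.02, 58.6 and 59.0 RPKM in the controls and 50.9, 53.6, 52.0 and 52.9 after SB. The lowest control, replicate 1, was just above the highest SB-treated library. The mean fell from 57.9 ± 2.70 to 52.4 ± 1.18 RPKM (SD, n = 4 each), a log2 fold change of -0.14 (SE 0.0412, limma adjusted p = 0.013), or -0.17 without control replicate 1 (limma adjusted p = 0.000284).

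**Figure D2:**
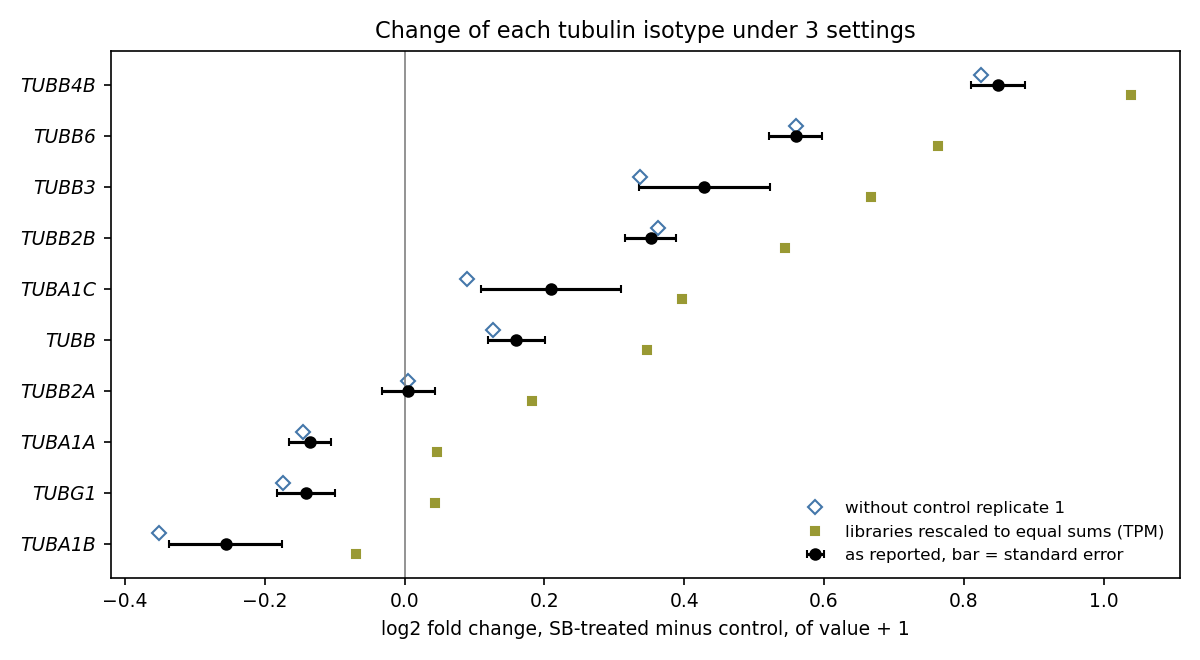
Log2 fold change of each isotype, SB-treated minus control, as reported (black, bar = standard error, n = 4 each), without control replicate 1 (open diamonds) and after TPM rescaling (squares). TUBB4B is highest at 0.85 and TUBA1B lowest at -0.26, and TPM rescaling shifts every isotype to the right.

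Whether isotypes of 1 family changed unequally was tested on 6 ratios within each library, which do not depend on library scaling. TUBB4B relative to TUBB was 1.93, 1.91, 1.91 and 1.81 in the controls and 2.99, 3.08, 3.02 and 3.12 after SB, on the deposited RPKM. This ratio was higher in 4 of 4 SB-treated libraries, by 0.69 on the log2 scale. TUBA1C relative to TUBA1B was 0.195, 0.208, 0.216 and 0.208 in the controls and 0.289, 0.286, 0.287 and 0.282 after SB, higher by 0.47 on the log2 scale. Here control replicate 1, which was low for both genes, lay close to the other controls, and the difference was 0.44 without it. The ratios of TUBB6 to TUBB, TUBB3 to TUBB and TUBB2B to TUBB2A were higher by 0.43, 0.39 and 0.36. For these 5 ratios the groups did not overlap, and each gave p = 0.0286 in the two-sided exact permutation test, the smallest p that 4 against 4 allows, and 0.0343 adjusted over 6 ratios. That test took the libraries as unpaired. TUBA1A relative to TUBA1B was 0.12, 0.0938, 0.0959 and 0.0937 in the controls and 0.109, 0.106, 0.111 and 0.109 after SB. It was highest in control replicate 1, and the difference of 0.12 on the log2 scale did not pass (exact permutation p = 0.143, adjusted 0.143). Without control replicate 1 it was 0.20, a comparison of 3 against 4 whose smallest p is 0.0571.

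**Figure D3:**
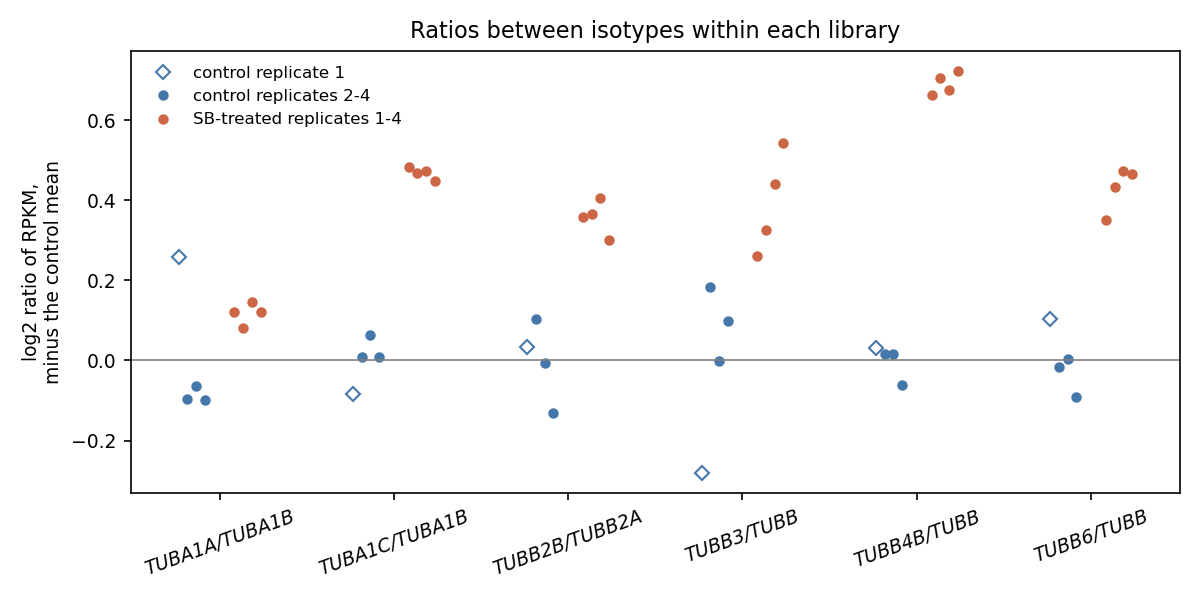
Log2 ratio of 2 isotypes in each library, minus the control mean of that ratio, with control replicate 1 as an open diamond. The SB-treated libraries lie above every control for 5 ratios and among the controls for TUBA1A/TUBA1B.

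The make-up of each family was described as each gene's share of the summed RPKM. TUBA1B made up 76.5% ± 0.402 of the 3 alpha genes in the controls and 71.7% ± 0.173 after SB, and TUBA1C 15.8% ± 0.693 and 20.5% ± 0.169 (SD, n = 4 each). Neither share overlapped between groups, and control replicate 1, at 76.1% and 14.8%, was near the others. TUBA1A was at 7.71% ± 0.936 and 7.80% ± 0.117, with overlap. Among the 6 beta genes, with TUBB over the length of 1 copy, TUBB made up 73.4% ± 0.741 and 65.4% ± 0.326, and TUBB4B 17.3% ± 0.353 and 25% ± 0.338, both without overlap (SD, n = 4 each). TUBB6 was at 2.44% ± 0.114 and 2.92% ± 0.10 without overlap, while the shares of TUBB2B and TUBB3 overlapped. With TUBB as deposited the shares were 25.7% ± 0.733 and 19.1% ± 0.223 for TUBB and 48.5% ± 0.41 and 58.3% ± 0.434 for TUBB4B, in the same directions.

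The summed alpha level was 513 ± 61.8 RPKM in the controls and 455 ± 5.03 after SB, and the summed beta level, with 1 copy of TUBB, 541 ± 22.4 and 680.0 ± 7.62 (SD, n = 4 each). For the alpha sum, control replicate 1 at 421 RPKM lay below every SB-treated library (451 to 462), so the groups overlapped. Most of that sum was TUBA1B, whose fall rested on the library scaling. Alpha over beta was 0.828, 0.984, 0.984 and 0.99 in the controls and 0.673, 0.674, 0.673 and 0.66 after SB. Every SB-treated library was below every control, and control replicate 1 lay between the groups. The size of this ratio depends on the TUBB length used and is given as a description.

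**Figure D4:**
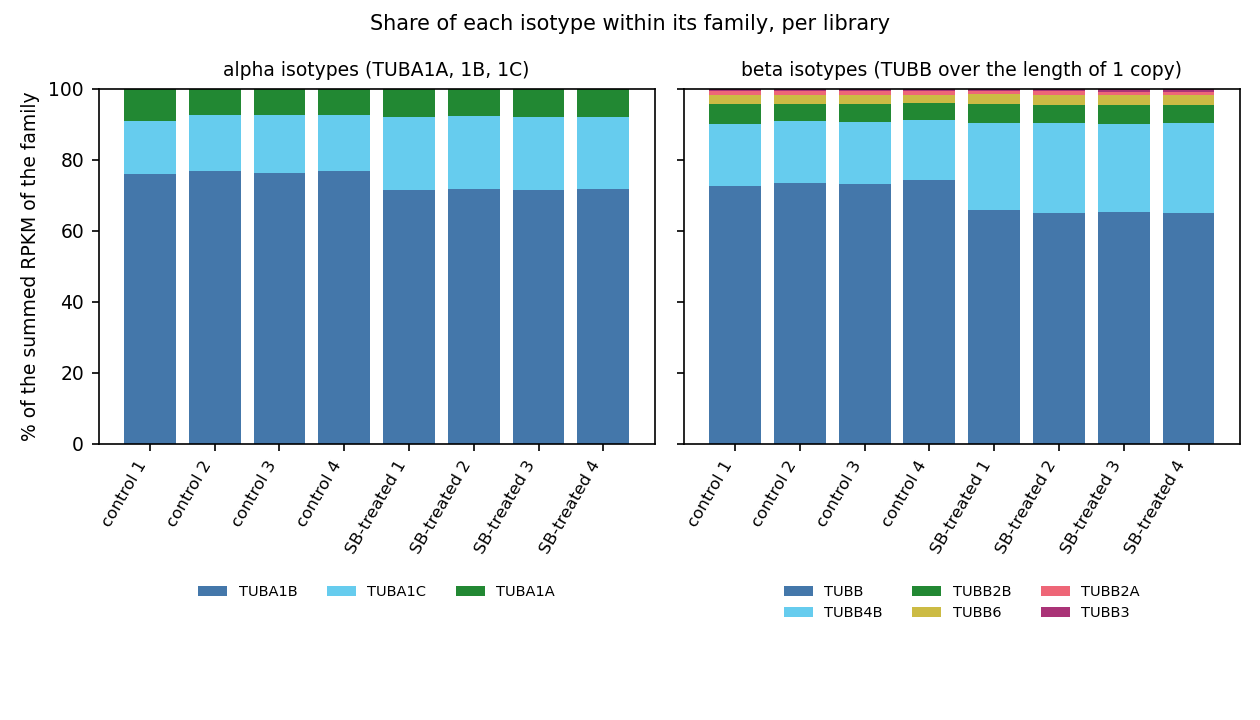
Share of each isotype in the summed RPKM of its family (%) in each library, alpha genes on the left and beta genes on the right, with TUBB over the length of 1 copy. TUBA1C widens from 15.8% to 20.5% and TUBB4B from 17.3% to 25% between the group means.

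For TUBB4B, the genes with the nearest profiles over the 8 libraries were sought by Euclidean distance of log2(RPKM + 1) minus the control mean. Nearest to TUBB4B were CABLES2 (distance 0.0669, 2.45 and 5.15 RPKM in control and SB), HEG1 (0.096) and ARNT2 (0.0992). None of these is a tubulin gene.

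Of 13 further tubulin genes, 8 had a row, 2 rose and 5 fell, with a median log2 fold change of -0.20, where 33.0% of all genes rose and 32.6% fell. TUBA8, an alpha gene of muscle and testis, rose from 0.393 ± 0.0894 to 0.853 ± 0.0569 RPKM (log2 fold change 0.41, limma adjusted p = 7.35e-05), and TUBB8, the beta gene of the oocyte, from 0.465 ± 0.0906 to 0.730 ± 0.156 (0.24, limma adjusted p = 0.0136). Both were under 1 RPKM, on 20 to 88 and 23 to 57 reads per library, and the TUBB8 groups overlapped. Of the 50-base windows of TUBB8, 63.9% occurred elsewhere, with 47.7% matching TUBB8B and 21.3% the pseudogene TUBBP5. Of those of TUBA8, 96.9% lie within overlapping genes. Whether these reads came from TUBA8 and TUBB8 themselves is therefore uncertain. TUBB4A, the beta isotype of myelin-forming cells, had the largest fall on the log2(RPKM + 1) scale, from 8.55 ± 1.30 to 6.31 ± 0.41 RPKM (-0.38, limma adjusted p = 0.00564), although control replicate 1 at 6.66 lay within the SB range. Without that replicate its change was -0.48 (limma adjusted p = 1.19e-05). TUBG2, the second gamma gene, fell from 5.19 ± 0.485 to 3.99 ± 0.347 RPKM (-0.31, limma adjusted p = 0.00269), and TUBE1, the epsilon-tubulin of centrioles, from 25.6 ± 2.87 to 21.0 ± 0.943 (-0.27, limma adjusted p = 0.00715). TUBA4A (-0.22) and the platelet gene TUBB1 (-0.18) fell as well, at 1.61 and 0.583 RPKM in the controls (limma adjusted p = 0.00356 and 0.00398). As a ratio of means, TUBB1 at 0.682 of the control fell below TUBB4A at 0.738, since the added 1 shrinks the change of a gene under 1 RPKM. TUBD1, the delta-tubulin gene, was at 7.42 ± 0.552 and 6.96 ± 0.346 RPKM and did not pass (limma adjusted p = 0.201). TUBA3C, TUBA3D, TUBA3E, TUBA4B and TUBAL3 had no row. After TPM rescaling 2 genes were called higher and 1 lower, TUBB1, where 7464 of all 14526 genes were higher and 2394 lower.

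The partners of tubulin were taken from 6 further lists, chosen by role. New tubulin chains are captured by prefoldin, folded in the CCT chaperonin and joined into dimers by the cofactors TBCA to TBCE. All 8 CCT subunits fell, with a median log2 fold change of -0.44. CCT8 moved most, from 278 ± 14.4 to 175 ± 2.50 RPKM (-0.66, limma adjusted p = 1.44e-06). Of the 13 cofactor and prefoldin genes 4 rose and 8 fell (median -0.31): the prefoldin subunit PFDN2 fell from 97.2 ± 2.05 to 66.4 ± 1.79 RPKM (-0.54, limma adjusted p = 1.54e-06), and TBCD, a cofactor acting on beta-tubulin, rose from 10.3 ± 1.66 to 13.5 ± 0.284 (0.38, limma adjusted p = 0.00587), or by 0.27 without control replicate 1. Against a background of 32.6% lower, the share lower was larger in both lists, with no test of the lists made. Under TPM rescaling 7 CCT genes and 6 cofactor and prefoldin genes were still lower, where 2394 of all 14526 genes were.

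The gamma-tubulin ring complex and augmin, which places it on existing microtubules, had 17 genes, of which 1 rose, 9 fell and 7 did not pass (median -0.17), against 65.6% of all genes called, 33.0% higher and 32.6% lower. TUBGCP6, the largest ring subunit, rose from 15.9 ± 1.76 to 19.4 ± 0.76 RPKM (0.27, limma adjusted p = 0.00783), and the augmin subunit HAUS2 fell from 18.5 ± 1.17 to 12.5 ± 0.33 (-0.54, limma adjusted p = 8.48e-06). Without control replicate 1, under which 75.5% of all genes passed, 2 rose and 10 fell. Under TPM rescaling the split was 5 higher and 6 lower, where 7464 of all 14526 genes were higher and 2394 lower.

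The 3 genes of tubulin mRNA autoregulation all passed, where 65.6% of all genes did, so a count of 3 says little about the list. TTC5, the factor that reads the nascent chain, fell from 17.8 ± 1.24 to 14.2 ± 0.177 RPKM (-0.31, limma adjusted p = 0.000342). SCAPER, its adaptor to the deadenylase, rose from 5.81 ± 0.437 to 7.50 ± 0.338 (0.32, limma adjusted p = 0.000408). CNOT11, the deadenylase subunit that SCAPER contacts, fell from 39.4 ± 2.42 to 35.7 ± 0.701 (-0.14, limma adjusted p = 0.0257). The CNOT11 call was lost without control replicate 3 (-0.12), SB-treated replicate 1 (-0.13) or SB-treated replicate 3 (-0.12), with limma adjusted p = 0.0669, 0.0545 and 0.0721.

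Of 20 enzymes that modify tubulin after folding, 19 had a row, 10 rose, 3 fell and 6 did not pass (median 0.12). The 13 called of 19 are a share near the 65.6% of all genes. Under TPM rescaling 12 rose and 2 fell, where 7464 of all 14526 genes rose and 2394 fell. TTLL7, a polyglutamylase that prefers beta-tubulin, rose most, from 5.64 ± 0.292 to 13.1 ± 0.46 RPKM, 2.31-fold (1.08, limma adjusted p = 1.31e-07). TPGS2, a subunit of another polyglutamylase, fell most, from 32.8 ± 0.55 to 20.5 ± 0.759 (-0.65, limma adjusted p = 8.77e-07). HDAC6, which removes the acetyl group of alpha-tubulin, rose from 18.3 ± 1.24 to 22.6 ± 0.525 RPKM (0.29, limma adjusted p = 0.000622). SIRT2, a second deacetylase of alpha-tubulin, was at 18.0 ± 1.42 and 17.2 ± 0.549 (-0.06, limma adjusted p = 0.357), and at -0.12 (limma adjusted p = 0.0054) without control replicate 1. The acetyltransferase gene ATAT1 was low, at 0.247 ± 0.0266 and 0.259 ± 0.0188 RPKM, and did not pass (0.01, limma adjusted p = 0.726).

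Of 30 microtubule-binding, dynamics and severing genes 28 had a row, 12 rose, 7 fell and 9 did not pass (median 0.04). Of all genes 33.0% rose and 32.6% fell. Under TPM rescaling the split was 18 higher and 3 lower, where 7464 of all 14526 genes were higher and 2394 lower. MAP7, which recruits kinesin to microtubules, rose from 4.68 ± 0.623 to 6.49 ± 0.16 RPKM (0.41, limma adjusted p = 0.000521), and the end-binding gene MAPRE2 fell from 32.2 ± 1.34 to 22.6 ± 0.683 (-0.49, limma adjusted p = 6.43e-06). Over the 7 lists, other tubulins included, 96 of 104 genes had a row, 30 rose and 42 fell, where 65.6% of all genes were called. Under TPM rescaling 42 were higher and 26 lower, to be read against the same 7464 and 2394 of all genes.

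**Figure D5:**
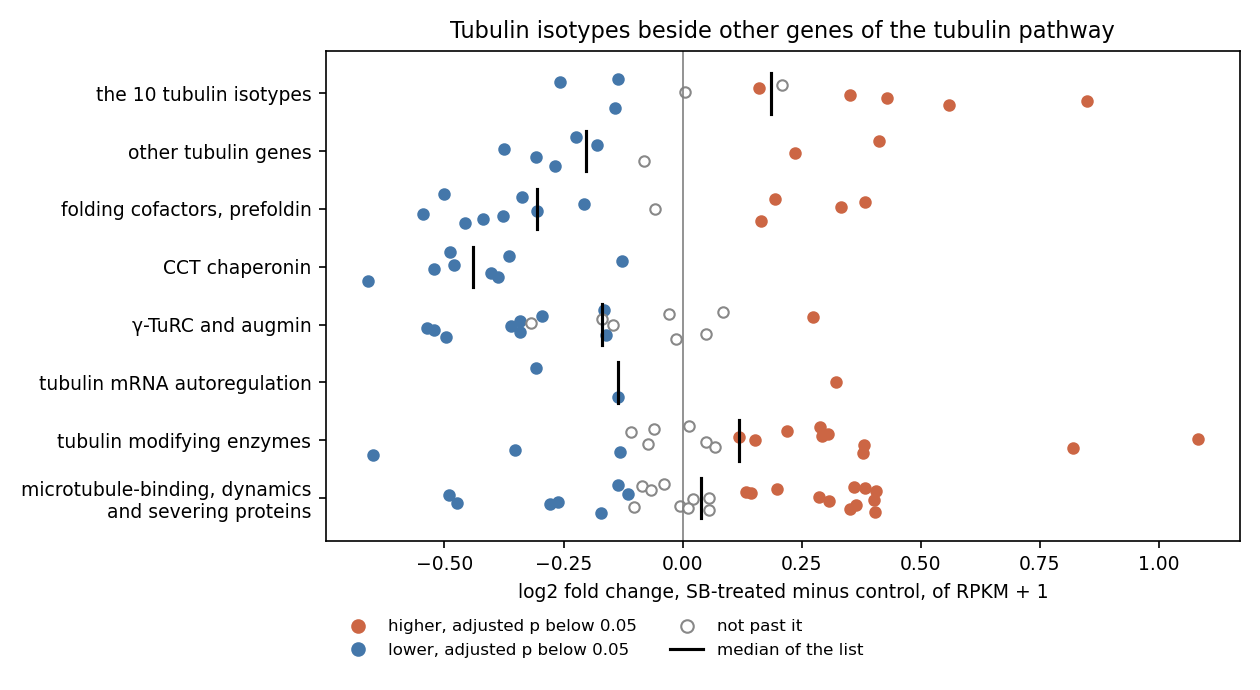
Log2 fold change of log2(RPKM + 1), SB-treated minus control, of the 10 isotypes and of the genes of 7 further lists, 1 point a gene, with the list median as a line. The isotypes reach from -0.26 to 0.85, while the 8 CCT genes all lie below 0 with a median of -0.44.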

How the data were processed

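Total RNA was sequenced as 50-base single reads from stranded libraries. The authors aligned the reads to the hg38 build (TopHat2 2.1.0) and counted them per gene (featureCounts 1.5.0), and the table was filtered at a CPM above 1 in at least 2 samples and scaled by TMM in edgeR 3.16.5. The deposited values are RPKM for 14526 genes and 8 libraries. The authors' log fold change, mean log CPM, p-value and FDR columns hold their own comparison and were not used, and 0 columns of per-sample values were left unused. Aligner settings for multiple hits and strand are not given in the sources used here.

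Groups and replicate numbers came from the sample titles. Whole reads were recovered from the RPKM steps for 100% of genes (tolerance 0.05 reads). Changes are log2(RPKM + 1) differences fitted over all genes with limma 3.58.1 in R 4.3.3, Benjamini-Hochberg adjusted over the table, with a threshold of 0.05. They understate the change of low genes. The scripts were tested on simulated data. P-values measure the spread between cultures of 1 line. Ratios were tested by exact permutation (scipy). Sharing of 50-base windows was computed on hg38 with GENCODE v44.

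The isotypes and all lists were chosen with earlier results of these data known. Named genes are all isotypes, every other tubulin gene with a row, the largest called rise and fall of each list, the genes TTC5, SIRT2, HDAC6 and ATAT1, tubulin pseudogenes, and the 3 nearest profiles of the isotype that rose most and of the one that fell most, the latter not reported here. CNOT11 is named in addition, chosen after its values were seen. Alternatives were a pseudocount of 0.1, a mean RPKM of at least 1, TPM rescaling, library totals without TMM, an intensity trend, voom on recovered reads, a block for the replicate number, and the omission of each library in turn.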

Additional observations from a re-analysis of the deposited data

Results flagged for a closer look

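In each group of 4 libraries, for 45 genes named here and both conditions (90 groups), the gap of an extreme library to its neighbour was compared with the whole range of the group on the log2(RPKM + 1) scale. The 95% critical value was passed in 13 groups, where chance alone gives about 4.5. In 10 of these 13 the extreme library was control replicate 1.

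It was the lowest control for TUBA1B (gap 0.865 of the range), TUBA1C (0.971), TBCD (0.843), TUBGCP6 (0.908), SIRT2 (0.932), HDAC6 (0.898) and COL1A1 (0.935). It was the highest control for TUBE1 (0.902), MAP7 (0.839) and INA (0.882). In the SB-treated group, replicate 4 was lowest for TUBB2B (0.946), replicate 2 highest for HDAC6 (0.913) and replicate 1 lowest for CABLES2 (0.867). Without control replicate 1 the log2 fold change was -0.19 for TUBE1, 0.20 for TUBGCP6, 0.24 for HDAC6, 0.48 for MAP7 and 0.75 for INA, each in the same direction and still past the test.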

How the results depend on the processing

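The 5 rises (TUBB, TUBB2B, TUBB3, TUBB4B and TUBB6) kept their direction and passed under all 15 alternatives. Another pseudocount, the minimum RPKM, the intensity trend and voom changed no call of an isotype. TPM rescaling, under which the median gene moved by 0.19, left 7 isotypes higher and 0 lower (limma, 0 also at an unadjusted p under 0.05), with TUBA1A at 0.047, TUBA1B at -0.070, TUBA1C at 0.40, TUBB2A at 0.18 and TUBG1 at 0.043. Over all genes the split of 4787 higher and 4740 lower became 7464 and 2394, and of the other lists 42 genes were higher and 26 lower, against 30 and 42; TUBD1 (0.090), SIRT2 (0.12) and CNOT11 (0.047) changed sign. Without TMM factors (median shift 0.11) the split was 6253 and 3357, again 7 isotypes were higher and 0 lower (limma, 0 also at an unadjusted p under 0.05), and TUBA1A was at -0.033, TUBA1B at -0.15, TUBA1C at 0.31, TUBB2A at 0.10, TUBG1 at -0.038, TUBD1 at 0.012 and SIRT2 at 0.039. With voom 3 isotypes were lower, but voom used the library sizes behind the deposited RPKM, TMM factors included. It is therefore no separate support for the falls of TUBA1A, TUBA1B and TUBG1. The changes under TPM rescaling and without TMM factors follow from the common shift that a scaling adds to every gene.

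Leaving out 1 library gave -0.35 to -0.22 for TUBA1B, 0.089 to 0.25 for TUBA1C and -0.021 to 0.019 for TUBB2A, which was at -0.021 without control replicate 2 and at -0.0023 without SB-treated replicate 4. It gave 5 to 6 isotypes higher and 2 to 3 lower. The replicate numbers were checked as a pairing: same-numbered libraries correlated at 0.38, 0.327, 0.173 and -0.16 in their deviations from the group means. Their mean was 0.18, against -0.0541 for other pairs. These values do not settle whether the numbers pair the libraries, and the main fit used no pairing. With the replicate block 5 isotypes were higher and 3 lower, with 4885 genes higher and 4894 lower over the table, and no call of an isotype changed. Over 4 complete pairs the mean difference of a ratio equals the difference of the group means, so pairing could not change the size of the ratio differences. It could change their test: a permutation test on 4 pairs cannot give a p below 0.125. If the libraries are paired, no ratio could therefore pass at 0.05.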

Other observations

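Of the tubulin pseudogenes, 2 had a row. TUBBP5 was at 8.78 ± 0.467 RPKM in the controls and 9.65 ± 0.293 after SB (SD, n = 4 each), with overlapping groups, and rose by 0.12 on the log2 scale (limma adjusted p = 0.0273). TUBA3FP was at 0.566 ± 0.132 and 0.553 ± 0.0725 RPKM and did not pass (limma adjusted p = 0.906).

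Counted as reads and not per length, TUBB held 82.4% ± 0.587 of all beta-tubulin reads in the controls and 76.5% ± 0.268 after SB, and TUBB4B 9.93% ± 0.23 and 14.9% ± 0.225 (SD, n = 4 each), with no overlap for either gene.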
